A study of Oryctolagus cuniculus with 6 samples.

Results

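EFNB1, which encodes ephrin-B1, and ESM1, which encodes endothelial cell-specific molecule 1 (endocan), were followed across basilar artery arrays of rabbits with tied or merely exposed carotid arteries. Their probes were taken by gene name or by the description of the target, which gave 2 of 10005 named genes and 6 of the 43603 non-control probes, 1 for EFNB1 and 5 for ESM1. Both genes had been picked because they were higher in the ligated group, so their differences between groups are given as a description and carry no test.

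Ephrin-B1 is a membrane-spanning ligand of Eph receptor tyrosine kinases, mainly of the EphB class. Binding needs contact between cells and sends a signal into both, forward through the receptor and in reverse through the tail of the ephrin, and B-class ephrins and their receptors take part in sorting arterial from venous cells and in attaching mural cells to vessels. Endocan is a secreted proteoglycan with a dermatan sulfate chain, made chiefly by activated endothelium, and is known as a gene that VEGF switches on in the tip cells of sprouting vessels.

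All 6 arrays came from female New Zealand White rabbits, studied 5 days after surgery. In the ligated group (3 arrays) both common carotid arteries were tied to raise flow, per the labels. In the sham group (3 arrays) both carotids were exposed but not tied. Cells were shaken loose from the basilar artery, a vessel at the base of the brain, after elastase and collagenase perfusion, and the labels call them smooth muscle cells. The labels give 3 rabbits per group but do not say that each array held 1 rabbit, so p-values measure the spread between these arrays, which may be partly technical.

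The EFNB1 probe lies on chromosome X at 47437894-47437950 on the plus strand of oryCun2, the rabbit build of the array design, a position in the files that spans 57 bases for a probe of 60. It is printed because the whole EFNB1 measurement rests on it. The 3 capitals mark a TGA triplet, the last of 20 when the probe is read in threes from its first base and the only stop triplet in that reading.
EFNB1: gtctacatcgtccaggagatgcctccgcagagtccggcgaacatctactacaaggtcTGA
The longest run of bases shared with any other probe on the array was 15. Against the 22 other probes for ephrins and Eph receptors the best ungapped alignment matched 19 to 24 of the 60 bases, and 21 for EFNB3, the other B-class ephrin with a probe.

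The 5 ESM1 probes lie on chromosome 11 on the minus strand and are described in the files as targeting an ESM1-like transcript. Each is moved by 1 base against the next, from 70962822-70962881 to 70962826-70962885, so they read nearly the same stretch and are repeat readings of 1 site rather than separate evidence. The first and the last of them are printed to show that overlap, with the 56 bases that all 5 hold in capitals.
ESM1 first probe: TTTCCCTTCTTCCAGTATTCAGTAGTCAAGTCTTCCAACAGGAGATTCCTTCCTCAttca
ESM1 last probe: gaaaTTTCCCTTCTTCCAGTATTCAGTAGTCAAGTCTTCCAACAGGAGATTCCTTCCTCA
The longest run shared with any probe outside the 5 was 13 bases.

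Values are log2 of the processed signal minus the 75th percentile of the array, so that 0 is the level of a probe at that percentile. That percentile was a signal between 157 and 251, and 58.7% to 63.7% of probes were well above background on an array. The 3 sham arrays shared 1 slide and the 3 ligated arrays another, so slide and surgery cannot be told apart, and sham 3 was scanned on a different day from the rest. Of the tested probes 2290 (8.35%) passed an adjusted p of 0.05 in limma, 5.71% of tested probes as higher and 2.65% as lower. The arrays of a group were not all alike: the SD of probe differences was 0.38 between sham 2 and sham 3 but 1.28 between sham 1 and each of them, against 0.92 between sham 1 and ligated 2. Ligated 3 stood at 0.94 from ligated 2, 0.96 from sham 2 and 1.02 from ligated 1. The 12 smooth muscle markers that could be tested had summed levels of 1442 to 2405 times the 75th percentile on sham arrays and 567 to 1458 times on ligated arrays. Of these, 0 passed as higher and 2 as lower (SMTN and DES, named after their values were seen), with 8 lower at an unadjusted p under 0.05 in limma and a median difference of -1.03. The 2 brightest, MYLK and TAGLN, had differences of -1.38 and -1.01 and did not pass (adjusted p 0.0648 and 0.133 in limma). In such a preparation, where all cells are read together, fewer cells of a type and less RNA per cell cannot be told apart.

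EFNB1 was low on every sham array and high on every ligated array. Its normalised log2 signal was -2.50, -2.30 and -2.34 on sham 1, 2 and 3, and 3.93, 2.20 and 2.25 on ligated 1, 2 and 3. The groups stood wide apart, the sham arrays close together, and ligated 1 alone well above the other ligated arrays. The means were -2.38 ± 0.11 and 2.79 ± 0.99 (SD, n = 3 each), a difference of 5.17. The lowest ligated array still lay 4.50 above the highest sham array, which is 22.6-fold.

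The scanner signals behind these values were 39.1, 42.0 and 44.3 in the sham group and 2761, 1150 and 744 in the ligated group, with a signal error of at most 12.3%. All 6 spots were well above background. The sham spots were therefore dim but measured. Of 7559 genes, each taken by its brightest tested probe, 3 had a larger difference than EFNB1 and 17 a larger one than ESM1, whose brightest probe differed by 3.92. Of those, 1 and 7 were well above background on all 3 sham arrays.

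Ligated arrays did not give the same amount of EFNB1. The highest was 79.3-fold and the lowest 23.9-fold above the sham mean, and they ranged over 1.73 log2 units, or 3.33-fold, against 0.20 in the sham group. The SD in the ligated group was larger than that of 93.4% of the 27410 tested probes (median 0.32), whereas the SD in the sham group was larger than that of only 15.4% (median 0.26). Ligated 1 made this spread, since without it the ligated SD was 0.04 and the difference from sham 4.60.

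**Figure D1:**
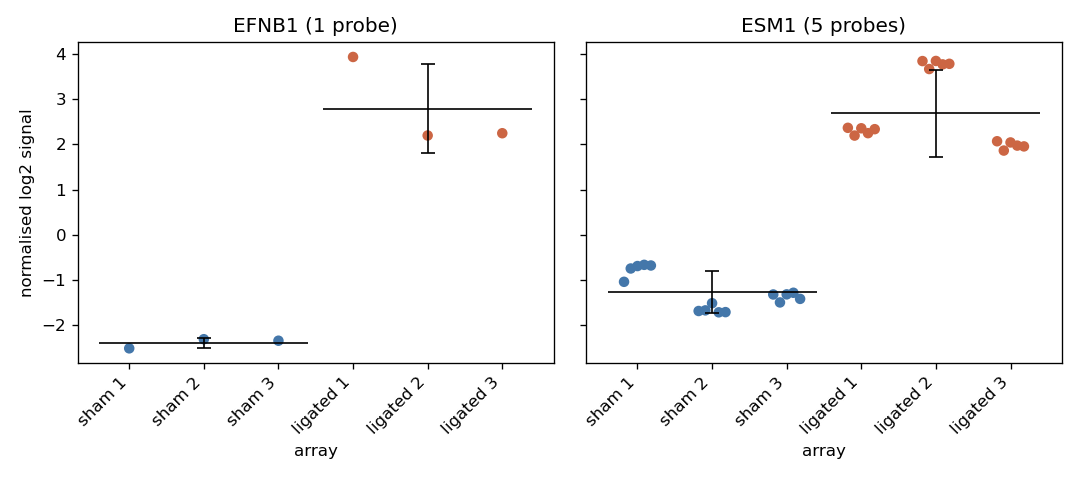
Normalised log2 signal of the EFNB1 probe (left) and the 5 ESM1 probes (right) on each array, blue for sham and orange for ligated, with horizontal lines at group means and bars of 1 SD over 3 arrays (probes averaged first). EFNB1 is highest on ligated 1 at 3.93 and ESM1 on ligated 2 at a mean of 3.78, and neither gene has a ligated value as low as a sham value.

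ESM1 was also higher on every ligated array, with a wider sham spread. The mean of its 5 probes was -0.76, -1.65 and -1.36 on sham 1, 2 and 3, and 2.30, 3.78 and 1.98 on ligated 1, 2 and 3. Here ligated 2 stood out on the high side and sham 1 was the highest sham array. The means were -1.26 ± 0.46 and 2.69 ± 0.96 (SD, n = 3 each), a difference of 3.94 or 15.4-fold. The gap between the lowest ligated and the highest sham array was 2.74, or 6.68-fold. Neither gene's groups overlapped, and ligated arrays lay wholly above sham arrays for 17.6% of all tested probes, from which nothing is read since the choice of genes used this contrast.

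The 5 ESM1 probes gave differences of 4.10, 3.87, 3.92, 3.88 and 3.95. Within an array they varied with an SD of 0.07 to 0.16, far less than the arrays of a group varied. The middle probe had scanner signals of 138, 72.9 and 90.1 on sham arrays and 927, 3599 and 646 on ligated arrays. The spread of ESM1 within a group thus lay between arrays and not between probes.

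Against the sham mean, ESM1 was 32.8-fold higher on ligated 2 and 9.44-fold higher on the lowest ligated array, a range within the group of 3.48-fold. Its ligated SD exceeded that of 92.9% of tested probes and its sham SD that of 76.9%. Without ligated 2 the ligated SD was 0.23 and the difference 3.40.

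The 2 genes did not peak on the same array. Ligated 1 held the highest EFNB1 value and ligated 2 the highest ESM1 value, while ligated 3 was lowest for ESM1 and nearly level with the lowest for EFNB1. Among the 1564 probes that passed as higher, ligated 1 was the highest ligated array for 42.6%, ligated 2 for 33.3% and ligated 3 for 24.1%. A peak on ligated 1 or on ligated 2 was thus no rarity among those probes.

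A probe on the same strand begins 551 bases past the end of the EFNB1 probe, at 47438501-47438560 of chromosome X. The files name no gene for it, and it was picked by position. It read 2.42, 2.23 and 2.34 on sham arrays and 3.13, 3.49 and 4.21 on ligated arrays. These groups did not overlap either, but ligated 1, the highest array for EFNB1, was the lowest ligated array here and ligated 3 the highest. Its difference was 1.28 ± 0.30 (SE), or 2.43-fold, with an adjusted p of 0.0492 in limma. That is 3.89 log2 units smaller than the difference at the EFNB1 probe. The call held in 7 of 18 other settings, with adjusted p from 0.0136 to 0.789, and was lost without sham 1 (0.0743), sham 2 (0.162), sham 3 (0.160), ligated 2 (0.114) or ligated 3 (0.0510). Scan day as a block counts among the 18, though it was the same fit as that without sham 3. Whether both probes read the same transcript was not tested.

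**Figure D2:**
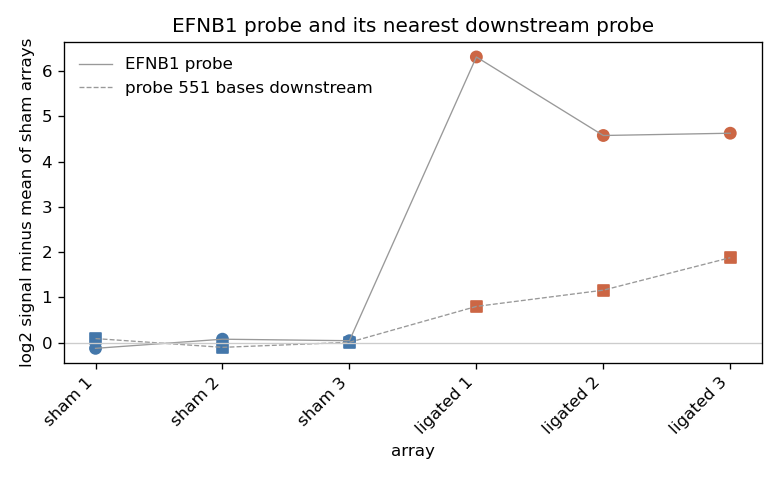
Log2 signal minus the mean of the 3 sham arrays for the EFNB1 probe (circles) and the unnamed probe 551 bases further along (squares), by array. Both are higher on all 3 ligated arrays, by a mean of 5.17 and 1.28, and ligated 1 is the highest ligated array for EFNB1 and the lowest for the other probe.

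The relatives and receptors of ephrin-B1 came next. Of 22 ephrin and Eph receptor genes listed, 16 had a probe and 11 could be tested, EFNB1 among them. Of the 10 others, 1 rose and 1 fell past an adjusted p of 0.05 and 8 did not pass, with a median difference of 0.97 against 0.01 over all genes. Over all 7559 genes, 6.2% passed as higher and 2.69% as lower. EFNB2, EPHB2 and EFNA4 had no named probe here, and EFNB3 and EPHB1 were too dim to test.

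The receptors that bind B-class ephrins gave no call. EPHB3, a receptor of B-class ephrins, had a difference of 1.02 with an adjusted p of 0.140 in limma. EPHB4, the venous receptor that pairs with ephrin-B2, had 0.27 and 0.549. EPHB6, which lacks kinase activity, had 1.05 and 0.241, and was well above background on 1 sham and 2 ligated arrays. EPHA4, an A-class receptor that also binds B-class ephrins, had 1.39 and 0.0811. None of these 4 differences passed as reported, which does not show that the levels were alike. EPHA4 passed in 3 and EPHB3 in 2 of 18 other settings, and EPHB4 and EPHB6 in none.

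EPHA2, an A-class receptor found on endothelial and epithelial cells, was the family member that rose. It read -3.85, -6.27 and -6.87 on sham arrays, where it was well above background on 1, and -2.01, -2.01 and -2.51 on ligated arrays. The difference was 3.48 ± 0.75 (SE) with an adjusted p of 0.0395 in limma. Since 2 of its sham spots were not well above background, that size is not a firm one, and EPHA2 reached the test through the ligated arrays. With all 6 arrays required to be well above background, 0 of the family passed as higher. The call was lost without any one of the ligated arrays, sham 2 or sham 3, and with sham 2 and sham 3 averaged its adjusted p was 0.124.

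EPHA7, another A-class receptor, fell. Its values were 0.28, 0.29 and 0.34 on sham arrays and -0.62, -0.98 and -0.66 on ligated arrays, a difference of -1.06 ± 0.18 (SE) with an adjusted p of 0.0221 in limma. All 3 of its tested probes passed. The call was lost without ligated 2, sham 2 or sham 3. EFNA1, an A-class ligand, had a difference of -0.10 with an adjusted p of 0.918.

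**Figure D3:**
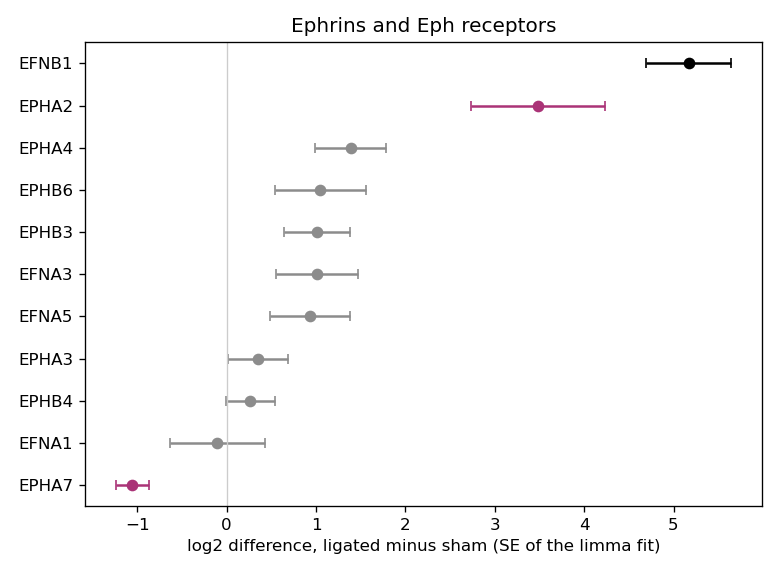
Difference in log2 signal, ligated minus sham, for the 11 testable ephrin and Eph receptor genes, each by its brightest probe, with bars of 1 SE of the limma fit over 3 arrays per group. EFNB1 (black) is a description at 5.17, EPHA2 at 3.48 and EPHA7 at -1.06 (purple) passed the test, and the 8 in grey did not.

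Of 24 testable genes whose products bind the tail of B-class ephrins, are phosphorylated or moved with them, or cut them, 4 rose and 0 fell past the threshold in limma, with 3 lower at an unadjusted p under 0.05 and a median difference of 0.61. The genes that rose were CLDN1, GJA1, TIAM1 and RHBDL2, while over all genes 6.2% passed as higher and 2.69% as lower. CLDN1 encodes claudin-1, a tight junction protein that can associate with ephrin-B1. It read -3.04, -4.48 and -3.17 on sham arrays, of which 2 were well above background, and 0.62, -0.50 and 0.44 on ligated arrays. The difference was 3.75 ± 0.48 (SE) with an adjusted p of 0.00884 in limma, and the call held without each array in turn. Ligated 1 was its highest ligated array, as for EFNB1, but ligated 3 lay close to it and ligated 2 stood low. For EFNB1, ligated 2 and 3 were nearly level and ligated 1 stood apart.

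GJA1 encodes connexin 43, a gap junction protein that meets ephrin-B1 at cell contacts. Its values were -3.36, -3.66 and -3.63 on sham arrays and -1.35, -0.45 and -1.25 on ligated arrays, a difference of 2.53 ± 0.29 (SE) with an adjusted p of 0.00635 in limma. Both of its probes passed. TIAM1, an exchange factor that activates Rac, was well above background on 0 sham arrays and was at least 3.26-fold higher on ligated arrays (adjusted p 0.00806). RHBDL2, a protease known to cut ephrin-B3 within the membrane, had 5 probes, of which 1 could be tested. It was at least 2.30-fold higher (adjusted p 0.0223 in limma) and lost its call without ligated 2 or sham 3. TIAM1 and RHBDL2 reached the test through the ligated arrays alone. With all 6 arrays required to be well above background 1 of the partners passed as higher. These bounds set the ligated mean against the weakest signal well above background on each sham array. They hold only under the background correction of the reported values. Over 17 other settings the lowest log2 difference was 0.73 for TIAM1 and 0.61 for RHBDL2. ADAM10, a protease that sheds ephrins, had a difference of 0.06 with an adjusted p of 0.872.

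For ESM1 the surrounding genes are those of VEGF, angiopoietin and tip cell signalling. Of 20 that could be tested apart from ESM1, 4 rose, 1 fell and 15 did not pass, with a median difference of 0.18. The shares over all genes were 6.2% higher and 2.69% lower. VEGFA, DLL4 and APLN had no named probe here, and KDR, the main signalling receptor for VEGF, was too dim to test. The genes usually measured beside ESM1 in tip cells were thus largely out of reach.

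SEMA3C, a secreted guidance cue, rose by 2.72 ± 0.37 (SE; adjusted p 0.0105 in limma) and lost its call without ligated 2. UNC5B, a netrin receptor of tip cells, rose by 1.63 ± 0.22 (SE; adjusted p 0.0105) and lost it without sham 2. ANGPTL4, a secreted inhibitor of lipoprotein lipase, rose by 2.39 ± 0.38 (SE; adjusted p 0.0173), a call lost in 4 of 6 fits without 1 array. The basement membrane gene NID2 rose by 1.98 ± 0.37 (SE; adjusted p 0.0264), lost in 5 of 6. HEY2, a Notch target linked to arterial identity, read 2.71, 2.79 and 2.91 on sham arrays and 1.75, 1.82 and 1.91 on ligated arrays. Its values were tight in both groups, with a difference of -0.97 ± 0.17 (SE; adjusted p 0.0228), though the call was lost without ligated 1, ligated 2, sham 2 or sham 3.

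NRP1, a VEGF co-receptor, had the pattern of spread seen for EFNB1. It read -2.20, -2.07 and -2.38 on sham arrays and 2.57, 0.09 and -0.62 on ligated arrays. Sham arrays lay close together and ligated 1 far above the rest. Its difference of 2.90 ± 0.77 (SE) did not pass, with an adjusted p of 0.0691 in limma. VEGFC, a ligand of VEGF receptors, had 1.59 and 0.0727, and ANGPT2, the angiopoietin released by activated endothelium, had -1.02 and 0.0694. The 3 tested VEGFC probes did not share a direction, with differences from -0.66 to 1.59. Over 18 other settings NRP1 and VEGFC each passed in 4 and ANGPT2 in 6. CXCR4, a chemokine receptor of tip cells, had 0.82 and 0.593, and PDGFB, the growth factor that draws in mural cells, 0.74 and 0.279.

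Endothelial marker genes gave no call. Of 9 testable endothelial markers 0 passed in limma and 0 had an unadjusted p under 0.05, with a median difference of 0.13, and their summed level ran from 55.7 to 112 times the 75th percentile on sham arrays and from 59.1 to 148 times on ligated arrays. VWF, the von Willebrand factor of endothelial granules, read 6.38, 5.48 and 5.36 on sham arrays and 5.88, 5.61 and 6.98 on ligated arrays. CLDN5, the claudin of brain endothelium, read 3.64, 2.83 and 2.66 against 2.07, 1.20 and 2.95. Ligated 2, where ESM1 was highest, was the lowest ligated array for 8 of the 9 markers, and ligated 3, where ESM1 was lowest, was the highest for 7. FLT1, a VEGF receptor of endothelium, had a difference of -0.07 (adjusted p 0.954) and TEK, the angiopoietin receptor, 0.13 (0.851).

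Markers of other cells also varied among these arrays. Ligated 2 was the highest ligated array for 11 of 12 smooth muscle markers, and ligated 1 for 6 of 9 fibroblast and meningeal markers. Those 9 had a median difference of 1.97, with 6 higher and 0 lower, against 6.2% higher and 2.69% lower over all genes. Their summed levels were 306 to 382 times the 75th percentile on sham arrays and 318 to 416 on ligated arrays. The 2 brightest of them did not pass by their brightest probes. DCN had a difference of 0.36 and PTGDS of -0.85 (adjusted p 0.325 and 0.250 in limma), though 4 of 6 DCN probes passed. The 6 pericyte markers gave 0 calls in limma and 1 unadjusted p under 0.05, with sums of 15.3 to 15.9 on sham arrays and of 27.7, 16.9 and 8.13 on ligated 1, 2 and 3. The 6 macrophage markers also gave 0 calls and 1 unadjusted p under 0.05, a median difference of 0.58 and sums of 8.97 to 19.3 on sham arrays and 8.75 to 32.6 on ligated arrays. The globin gene HBB2 read 7.08, 8.10 and 8.05 on sham arrays and 4.32, 4.51 and 8.74 on ligated arrays, and GFAP and AQP4, which mark astrocytes, were above background on 0 arrays. Of the 3 neuronal and glial markers that could be tested, 0 passed in limma by their brightest probes. ENO2 and S100B were well above background on all 6 arrays, with differences of 0.17 and -0.90 (adjusted p 0.760 and 0.0546 in limma). For S100B, 3 of its 5 tested probes passed as lower. The part of these cell types in the EFNB1 and ESM1 values was not tested.

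**Figure D4:**
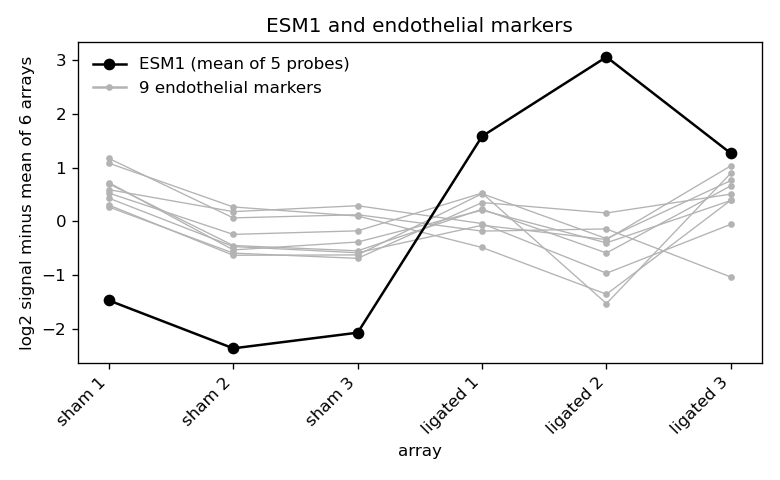
Log2 signal minus the mean of the 6 arrays for ESM1 (black, mean of 5 probes) and 9 endothelial markers (grey), by array. ESM1 is highest on ligated 2, which is the lowest ligated array for 8 of the 9 markers.

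Endocan binds growth factors and adhesion proteins, and 7 of those partners could be tested. Of these 2 rose and 0 fell in limma (0 lower at an unadjusted p under 0.05), with a median difference of 0.51. Among all genes 6.2% passed as higher and 2.69% as lower. HGF, a growth factor that binds the dermatan sulfate chain, read -2.33, -2.03 and -1.81 on sham arrays and -0.11, -0.24 and -0.44 on ligated arrays, a difference of 1.79 ± 0.21 (SE) with an adjusted p of 0.00721 in limma. FN1, the matrix protein fibronectin, read 5.34, 5.07 and 5.01 against 7.47, 7.25 and 7.94, which is 5.33-fold, with an adjusted p of 0.00441 and all 11 of its probes past the threshold. Both calls held without each array in turn. The integrin genes ITGB1 and ITGB2 had differences of -0.32 and -0.28, and adjusted p of 0.409 and 0.809. ICAM1 had no named probe here, and ITGAL was too dim to test.

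Genes for making dermatan and chondroitin sulfate, the chain that endocan carries, were mostly higher or without a call. Of 13 testable genes, 5 rose, 0 fell and 8 did not pass (0 lower at an unadjusted p under 0.05), with a median difference of 0.57. Over all genes 6.2% passed as higher and 2.69% as lower. PAPSS2, which makes the sulfate donor, rose by 1.44 ± 0.17 (SE; adjusted p 0.00741 in limma), with all 5 of its probes past the threshold and the call held without each array. CHPF, CHPF2 and CSGALNACT2, which help build the chain, had differences of 1.02, 0.92 and 0.99, with adjusted p of 0.0390, 0.0308 and 0.0372. The chain-building enzyme CHSY3 was well above background on 0 sham arrays and at least 3.12-fold higher on ligated arrays (adjusted p 0.0280), having reached the test through the ligated arrays alone. That bound has the same limit as those of TIAM1 and RHBDL2, and over 17 other settings the lowest log2 difference of CHSY3 was 0.75. Those 4 calls were less steady than that of PAPSS2, each being lost in 4 or 5 of the 6 fits without 1 array. DSE, the epimerase that turns chondroitin into dermatan sulfate, had a difference of 0.67 with an adjusted p of 0.0985.

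Profiles over the 6 arrays were compared by the root mean square distance between mean-centred log2 values, as a description. The distance contains the group difference for which both genes were picked. Genes with a rise of like size therefore come out near, and nothing is read from the contrast with the median. Nearest to EFNB1 were SGO1 (0.56), LPL (0.62), TOMM6 (0.72), ANLN (0.74) and KDELR3 (0.75), against a median of 2.67 over all genes. SGO1 and ANLN act in cell division, LPL is lipoprotein lipase, TOMM6 belongs to the mitochondrial import pore and KDELR3 returns proteins to the endoplasmic reticulum. KDELR3 read -0.37, -1.07 and -0.89 on sham arrays and 4.36, 2.86 and 2.05 on ligated arrays, with ligated 1 highest as for EFNB1. Ligated 1 was also the highest for SGO1, LPL and TOMM6, but ligated 2 was the highest for ANLN. SGO1 and ANLN were well above background on 0 sham arrays and LPL on 1, so their distances rest partly on sham values below background.

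Nearest to ESM1 were CDK1 (0.52), CCNB2 (0.60), FABP5 (0.60), COL5A3 (0.61) and SHCBP1 (0.62), against a median of 2.07. CDK1 and CCNB2 form a kinase and cyclin pair of mitosis, FABP5 binds fatty acids and COL5A3 is a fibrillar collagen chain. CDK1 read -2.80, -2.54 and -2.65 on sham arrays and 1.03, 1.64 and 1.24 on ligated arrays, with ligated 2 highest as for ESM1 but a narrower ligated spread. COL5A3 and SHCBP1 were well above background on 0 sham arrays and CCNB2 on 2, so the same limit holds for them. Ligated 2 was also the highest for CCNB2 and COL5A3, but ligated 3 was the highest for FABP5 and SHCBP1. FABP5 read 2.77, 2.74 and 2.85 on ligated arrays. A small distance thus did not require the same order of ligated arrays. The distance between EFNB1 and ESM1 themselves was 1.17. All these distances rest on 6 arrays that share slides within a group.

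The size of both differences depended on the background correction. Over the 15 other settings in which it was computed, the EFNB1 difference ran from 2.90 to 5.47, or 7.48- to 44.3-fold, and that of ESM1 from 2.33 to 4.43, or 5.04- to 21.6-fold. Among these settings, scan day as a block and the fit without sham 3 were the same fit. The replicate block could not move either difference, since each replicate number has a sham and a ligated array. The lowest values came from normexp, a model-based background correction with an offset of 50, which lifts dim spots. Under it 0 probes passed in limma, with 615 at an unadjusted p under 0.05, so every call above ended there. With high-background spots left out of the same correction, 2553 probes passed in limma, 1524 as higher and 1029 as lower. Those spots, with a background over 10 times the median of their array, numbered 0 to 19 per array. EFNB1 and ESM1 differences were positive in all 15 settings.

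**Figure D5:**
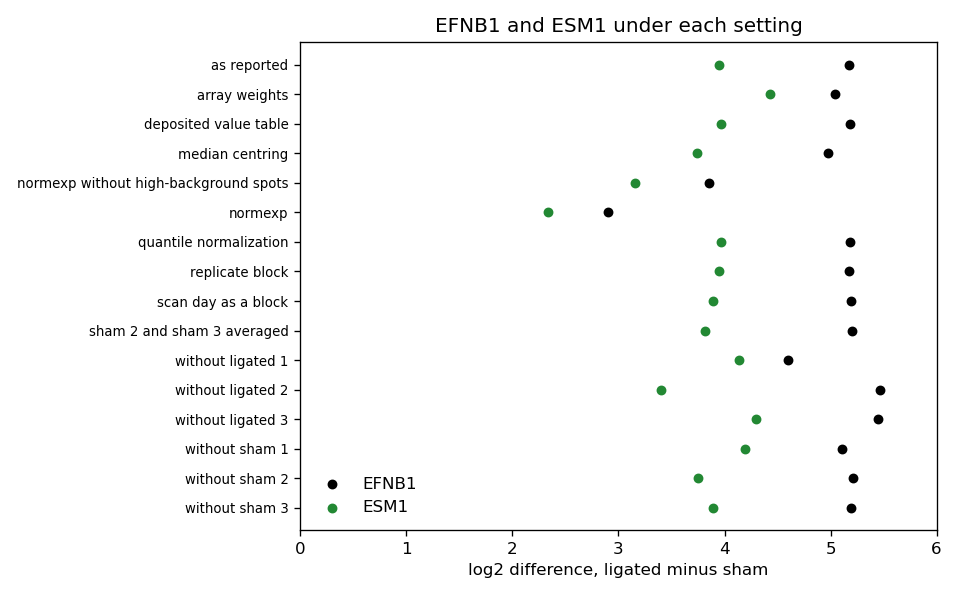
Difference in log2 signal, ligated minus sham, of EFNB1 (black) and ESM1 (green, mean of 5 probes) as reported and in 15 other settings. EFNB1 runs from 2.90 to 5.47 and ESM1 from 2.33 to 4.43, both lowest under normexp.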

How the data were processed

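The processed signal of each spot is, per the file headers, an intensity after background subtraction within the array, read with Agilent Feature Extraction 10.7 per the submitters' processing notes. The deposited flags (other, 0 or 1) mark spots well above background, saturated or outlying. The authors' value table, in log2, had equal array medians (5.05), and its scaling step is not given in the sources.

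Outlier spots were dropped, repeated spots averaged, log2 taken and the 75th percentile subtracted per array. Probes well above background on at least 3 of 6 arrays (27410 of 43603) entered a two-sided limma fit (3.58.1, R 4.3.3), adjusted by Benjamini-Hochberg over all tested probes. Of these, 2290 (8.35%) passed at 0.05. The limma step was checked on simulated data.

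The brightest tested probe stood for a gene. Symbols came from the files through RefSeq names of mOryCun1.1: 22571 probes had 1 symbol, 143 several and 20889 none. Named genes were the members, set family and partner genes whether called or not, list genes past the threshold and the 5 nearest profiles. Further markers named were among the 2 brightest of their cell type, apart from SMTN, DES, GFAP and AQP4. The members and lists were chosen with earlier results of these data known.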

Additional observations from a re-analysis of the deposited data

How the results depend on the processing

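No direction of EFNB1 or ESM1 turned in any setting. The EFNB1 difference was 2.90 under normexp and 3.86 under normexp without high-background spots, and that of ESM1 2.33 and 3.15. Leaving out 1 array moved them over 4.60 to 5.47 and 3.40 to 4.30. The EFNB1 SD in sham arrays was 0.0704 in the deposited table, 0.0709 with quantile normalization, 0.736 under normexp and 0.0467 without high-background spots, where that of ESM1 was 0.257. Without 1 array, the SD of EFNB1 ran over 0.0355 to 1.23 (ligated) and 0.0236 to 0.143 (sham), and that of ESM1 over 0.226 to 1.27 and 0.206 to 0.632.

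All probes higher (1564) became 3299 with array weights, 0 under normexp, 482 with scan day as a block, 515 with sham 2 and sham 3 averaged, and 482 to 1551 without 1 array. Lower (726) became 2681, 0, 70, 80 and 70 to 739, with 326 unfiltered, 236 with the replicate block and 1119 with trend and robust. Since only sham 3 was scanned on another day, scan day as a block was the same fit as leaving out sham 3, not a separate check. Median centring moved the median of all probes to -0.19 and the share of higher calls from 68.3% to 52.2%.

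Ephrins and Eph receptors higher (1) became 3 with array weights, 2 with normexp without high-background spots, and 0 in the deposited table, with all 6 arrays required, unfiltered, with normexp, quantile, scan day or averaging; 0 to 2 without 1 array. Lower (1) became 0 with normexp, replicate block, scan day or averaging, and 0 to 1. Ephrin-B partners higher (4) became 7 with array weights, 1 with all 6 arrays required and 0 with normexp, and 3 to 4; lower (0) became 3 with array weights, 1 with median centring, 2 with normexp without high-background spots or trend and robust, and 0 to 1. VEGF genes higher (4) became 0 with normexp, 2 with scan day or averaging, and 1 to 4; lower (1) became 2 with array weights, all 6 arrays, median centring, normexp without high-background spots or trend and robust, 0 unfiltered, with normexp, replicate block, scan day or averaging, and 0 to 2. ESM1 partners higher (2) became 0 with normexp. Chain synthesis higher (5) became 2 with median centring, unfiltered or the replicate block, 1 with scan day or averaging, 0 with normexp, and 1 to 5. The causes were not tested.

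The labels do not say that replicate numbers pair arrays. Deviations of same-numbered arrays correlated at 0.43, -0.57 and 0.58, which cannot settle it with 3 arrays per group. With the replicate block 1295 probes passed in limma against 2290. The EFNB1 difference with the replicate block was 5.17, which the design fixes, since each replicate number has a sham and a ligated array. Dim probes, 3 arrays per group and 1 slide per group limit all values.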
